A study of Mus musculus with 2 samples.

Results

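Alveolar fibroblasts are the Pdgfra-bearing, lipid-handling fibroblasts that lie within the walls of the air sacs. They were taken here from 2 droplet single-cell RNA libraries of mouse lung as the fibroblasts that carry alveolar markers and show no marked inflammatory or cell-cycle signal. A barcode was a member when it had at least 500 genes and at most 10% mitochondrial UMIs (unique molecular identifiers, 1 per captured RNA molecule). It also needed at least 20 UMIs per 10000 from Col1a1, Col1a2, Col3a1, Dcn and Pdgfra together, none from Ptprc, Pecam1 or Epcam, and at least 8 per 10000 from Npnt, Tcf21, Slc7a10, Fgfr4 and Figf together (Figf is the older symbol of Vegfd). Cells with 3 or more UMIs of Il6 and Tnfaip6, 2 or more of Cxcl9 and Cxcl5, or 4 or more of Mki67, Top2a, Cdk1, Ube2c and Birc5 were left out. The cells were thus chosen by measured values of these genes. The rule was met by 814 of 4473 bleomycin barcodes (18.2%, 95% exact binomial interval 17.1 to 19.4) and 1779 of 5455 saline barcodes (32.6%, 31.4 to 33.9), 2593 of 9928 in all.

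The bleomycin library came from Lepr-Cre;Rosa26-tdTomato mice that received bleomycin, an agent used to injure the lung and provoke fibrosis, and the saline library from mice of the same genotype given saline. All animals were 8 to 10 weeks old and carried both alleles, so tdTomato marks cells in which the leptin receptor's promoter drove Cre in the cell or in a forebear, and live tdTomato-positive lung cells were sorted for capture. Each group is 1 library, and the number of mice behind it, the dose and the day of harvest were not given in the sources used here. No test between the groups is possible: intervals below cover counting error alone, cells are not replicates, and mouse, library and treatment cannot be told apart.

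As background, alveolar fibroblasts lie beside type 2 epithelial cells and support them with growth factors such as those of the FGF and Wnt families. They lay down elastin and basement membrane, store and turn over lipid and retinoid, and in the mouse are marked by Npnt (nephronectin, a basement-membrane ligand of the integrin that contains Itga8), Tcf21 (a transcription factor of the lung mesenchyme) and Inmt (a methyltransferase). In fibrosis, lung fibroblasts make more fibrillar collagen, and a population marked by Cthrc1 and Postn appears.

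The member cells held 9504814 UMIs in the bleomycin library and 12593970 in the saline library. Their median depth was 10764 UMIs in bleomycin cells and 6928 in saline cells, with 3035.5 genes in bleomycin cells and 2368 in saline cells, and mitochondrial shares of 2.21% in bleomycin cells and 2.104% in saline cells were close. The rule's ceilings are in UMIs and so bind harder in the deeper bleomycin cells. The libraries share 33 barcodes, of which 1 is a member in both. Epithelial, immune and endothelial markers were lower in bleomycin members: the 11 epithelial marker genes summed to 53.9 UMIs per 1000000 (UPM) in bleomycin members and 1610 in saline members, against 238363 in the saline library's own epithelial cells, while 2 of them were at 0 in bleomycin members and none in saline members. Immune markers (11 genes, none at 0 in either library) summed to 141 UPM in bleomycin members and 288 in saline members, against 56325 in the bleomycin and 36983 in the saline library's immune cells. Endothelial markers (10 genes, none at 0) summed to 39.9 UPM in bleomycin members and 242 in saline members. Tmem100 gave 19.7 UPM of the bleomycin and 221 of the saline sum, so the difference lies mostly in Tmem100. The sum was 6095 UPM in the bleomycin and 7727 in the saline library's endothelial cells. The part that RNA of these cells plays in the results was not tested. To set a background, each gene's lowest level among the immune, endothelial and epithelial cells of the same library is called its floor below. The bleomycin library held 345 immune, 186 endothelial and only 4 epithelial cells, so its floor uses immune and endothelial cells, and the saline library held 569 immune, 126 endothelial and 390 epithelial cells.

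Both libraries hold cells with the alveolar markers, but in bleomycin members they made up less of each cell's UMIs. The sum of the 5 markers that chose the cells had a median of 14.4 per 10000 UMIs in bleomycin members (10th to 90th percentile 8.88 to 31.3) and 22.2 in saline members (10.2 to 39.4). Just inside the threshold, at 8 to 10, lay 175 bleomycin members (21.5%) and 156 saline members (8.77%). Just outside, at 6 to 8, lay 248 bleomycin cells and 189 saline cells. These values are a description, since they were used to choose the cells. Members made up 22.9% of 3561 fibroblast barcodes in the bleomycin library and 49.9% of 3567 in the saline library, and fewer cells of this kind cannot be told apart from less marker RNA per cell.

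**Figure D1:**
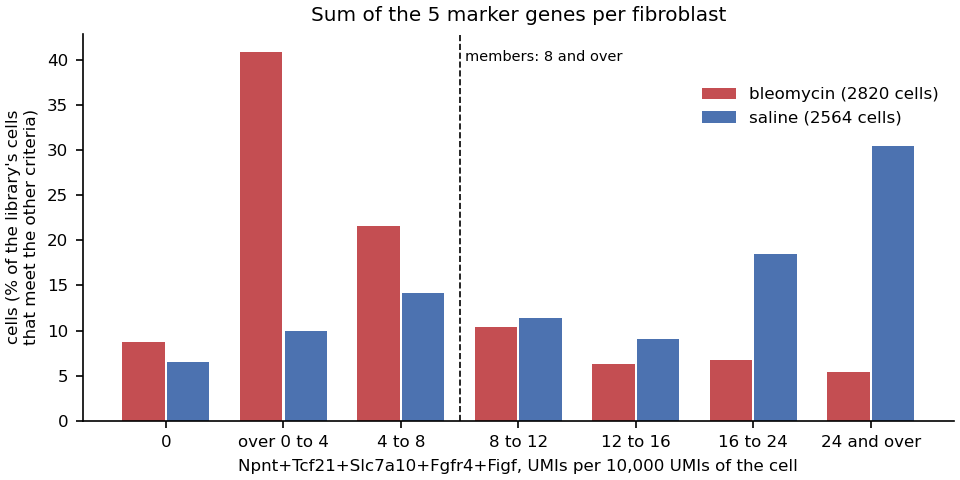
Share of cells in each range of the summed 5 markers (UMIs per 10000 UMIs of the cell, x axis) as a percentage of the library's fibroblasts that meet the other criteria (y axis), bleomycin in red and saline in blue. Members lie right of the dashed line: 814 bleomycin and 1779 saline cells, and the saline cells are most numerous in the highest range.

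Single markers moved unequally. Npnt, which encodes nephronectin, had 539 UPM in bleomycin members and 1337 in saline members, and Slc7a10, an amino acid transporter, 25.6 in bleomycin and 139 in saline members. Fgfr4, a receptor for FGFs, had 18.6 UPM in bleomycin members and 60.3 in saline members. Tcf21 stood at 298 UPM in bleomycin and 447 in saline members. Figf, a lymphatic growth factor, ran the other way with 754 UPM in bleomycin members and 388 in saline members, the highest of the 5 in bleomycin members. Pdgfra was close in both, at 443 UPM in bleomycin members and 554 in saline members.

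Among markers that the rule did not use, some genes of the identity list stood near their saline level in bleomycin members and others were lower. Of 15 such genes tested, 8 fell and none rose, with a median log2 ratio of -1.09, whereas the median of all 5806 genes tested was -0.02. Here a gene rose or fell when the library with the higher level had at least 50 UMIs and 20 UPM and the ratio, with 1 UPM added to both sides, was at least 2-fold. By this rule of size, which is not a test, 4.56% of all genes tested rose and 5.68% fell. Inmt had 2019 UPM (95% exact Poisson interval 1990 to 2048) in bleomycin members and 6601 (6556 to 6646) in saline members, a log2 ratio of -1.71. Ces1d, a lipid hydrolase, had 197 UPM in bleomycin members and 494 in saline members, Col13a1 (a transmembrane collagen) 95 in bleomycin and 259 in saline members, and Cxcl14 (a chemokine) 756 in bleomycin and 1605 in saline members. Gpx3, the secreted glutathione peroxidase, stood at 8466 UPM in bleomycin members and 7602 in saline members, and Mfap4, an elastic fibre protein, at 4477 in bleomycin and 4784 in saline members, so neither reached 2-fold. The bleomycin members hold alveolar fibroblast markers well over their floors (Inmt 41.3 UPM). At 3000 UMIs per cell, Mfap4 had a UMI in 90.05% of bleomycin members, against 23.1% of that library's endothelial and 27.5% of its immune cells. Gpx3 had one in 99.6% of bleomycin members, against 54.3% of endothelial and 54.5% of immune cells. Genes that fell were found in fewer bleomycin members, Inmt in 60.7% and Ces1d in 30.7%. Mfap4 and Gpx3 are not particular to cells with the markers. Bleomycin fibroblasts with a marker sum of 0 had 892 UPM of Mfap4 and 2378 of Gpx3, over floors of 108.6 and 299. The fibrotic and matrix genes given next go against the label resting for the bleomycin members.

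Of the 5806 genes tested, 265 rose (4.56%) and 330 fell (5.68%) in bleomycin members, of which 202 and 274 were also at least 2 times the floor in the higher library. The 12 named genes with the highest ratios, all at least 2 times their floor, had at most 10.7 UPM in saline members. Spp1, which encodes osteopontin, a secreted matrix and cytokine-like protein (chr5:104435118-104441050, mm10), had 1460 UPM in bleomycin members and 1.75 in saline members, a log2 ratio of 9.05 with an exact interval of 9.11 to 10.38 for the ratio without the added UPM. Its floor in the bleomycin library was 188.5 UPM, in endothelial cells. Ctla2a, a cysteine protease inhibitor of the mouse (chr13:60934155-60936625), had 1840 UPM in bleomycin members and 3.41 in saline members. Ctla2a has a close copy, Ctla2b, so the split between them is uncertain, and endothelial cells express it as well, at 2330 UPM in the bleomycin library and 1093 in the saline library.

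Ptn, which encodes the growth factor pleiotrophin, had 244 UPM in bleomycin members and 0.64 in saline members, over floors of 11.3 in the bleomycin and 0.38 in the saline library. Cthrc1, a secreted protein that marks fibrotic fibroblasts, had 116 UPM in bleomycin members and 0.16 in saline members, where only 2 UMIs were counted; its exact log2 ratio lies between 7.65 and 12.56. S100a4, a calcium-binding protein, had 881 UPM in bleomycin members and 10.7 in saline members, with a high bleomycin floor of 362. The other genes of the 12 highest were Hspb7, a small heat shock protein of muscle (171 UPM in bleomycin members and 2.30 in saline members), Fst, which binds and blocks activins (bleomycin 122, saline 1.91), the neurotrophin Bdnf (bleomycin 70.0, saline 1.43), Sncg, a synuclein (bleomycin 52.3, saline 1.03), the surface protein Cd109, the adhesion molecule Chl1, and Prune2. Hspb7, Bdnf and Chl1 were at most 10.1 UPM in the bleomycin library's immune and endothelial cells.

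**Figure D2:**
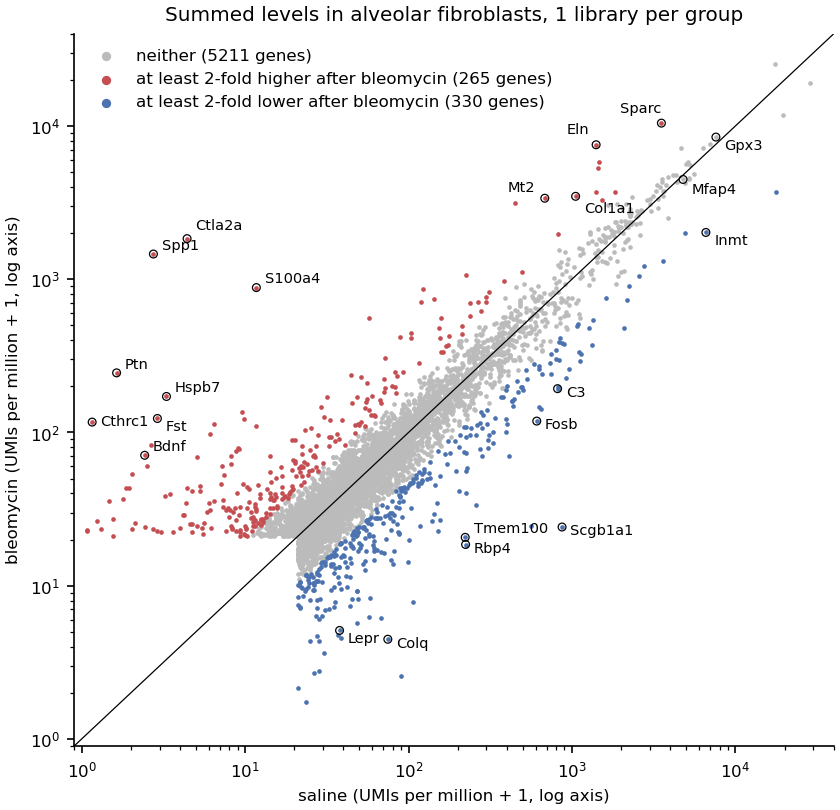
Level of each of the 5806 genes tested, in UPM + 1 on log axes, in bleomycin members (y axis) against saline members (x axis); the line marks equal levels. Red points (265) rose at least 2-fold and blue points (330) fell at least 2-fold; Spp1, Ctla2a and S100a4 stand far above the line, Inmt and Rbp4 below it, and Scgb1a1 is an epithelial gene at its floor in saline members.

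The genes of the fibrotic fibroblast list were higher together. All 11 members tested rose, and the list's median log2 ratio was 4.25. The list was chosen with earlier results of these cells known and is not independent evidence of its direction. Postn, the matrix protein periostin, had 113 UPM in bleomycin members and 5.48 in saline members. Timp1, an inhibitor of matrix proteases, had 448 UPM in bleomycin members and 103 in saline members. Sfrp1, a secreted Wnt inhibitor, had 417 UPM in bleomycin members and 88.0 in saline members, and Tnc, tenascin C, 119 in bleomycin and 38.1 in saline members. The transcription factor Runx1 had 63.8 UPM in bleomycin members and 19.1 in saline members. Seen cell by cell, 80.8% of bleomycin members had more of the list's UMIs per 10000 than the 95th percentile of saline members, which 5% of saline members exceed by construction. The list summed to 4158 UPM in bleomycin members, of which Spp1 gave 1460 and S100a4 881. Their floors were 188.5 and 362 UPM in the bleomycin library, against 4.41 and 5.63 in the saline library. The part that background RNA plays in this share of cells was not tested.

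Matrix genes rose selectively. Col1a1 had 3474 UPM in bleomycin members and 1052 in saline members, and Col1a2 3728 in bleomycin and 1393 in saline members, log2 ratios of 1.72 and 1.42; both are part of the rule's fibroblast gate. Col3a1 stood at 3045 UPM in bleomycin members and 1662 in saline members, below 2-fold. Of the 9 other collagens of the fibrillar list that were tested, Col5a1, Col5a2 and Col12a1 rose, by log2 ratios of 1.92, 1.83 and 2.19, and none fell, while the chains of collagen VI, Col6a1 (492 UPM in bleomycin members and 549 in saline members) and Col6a2 (bleomycin 459, saline 477), stayed within 2-fold. Eln, elastin, showed one of the larger differences among abundant genes, with 7543 UPM in bleomycin members and 1405 in saline members. Sparc, a collagen-binding protein of basement membranes, had 10442 UPM in bleomycin members and 3526 in saline members.

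The elastic fibre list split: Eln, Fbln2 and Ltbp2 rose, and Fbln1, Fbln5 and Efemp1 fell by a log2 ratio of -1.69 each, among 14 tested. Fbln2, a fibulin of injured vessels and skin, had 135 UPM in bleomycin members and 8.58 in saline members. Collagen IV chains Col4a1 and Col4a2 rose (log2 ratios 1.22 and 1.99), whereas the laminin gene Lamc1 stood at 172 UPM in bleomycin members and 181 in saline members. Of 14 genes that process or crosslink collagen 4 rose and 2 fell. The 4 that rose were Lox (481 UPM in bleomycin members and 152 in saline members), Loxl2 (bleomycin 95.3, saline 26.9), Bmp1 (bleomycin 65.0, saline 18.5) and P4ha3. Pcolce2, an enhancer of procollagen cleavage, fell to 476 UPM in bleomycin members, against 2082 in saline members, and Serpinh1, the collagen chaperone, stood at 914 UPM in bleomycin and 1267 in saline members. The proteoglycan decorin, Dcn, is one of the rule's genes and had 270 UPM in bleomycin members and 631 in saline members. Its direction depends on which cells are taken: with the marker sum at 24 or more the log2 ratio was 0.46. Of 15 protease and inhibitor genes 6 rose, among them Ctsk (145 UPM in bleomycin members and 28.1 in saline members) and the membrane protease Mmp14 (bleomycin 163, saline 54.9), and 1 fell, Timp3 (bleomycin 384, saline 867).

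Contractile genes rose in part. Of 17 tested 6 rose and none fell, with a median log2 ratio of 0.55. Acta2, the smooth muscle actin of myofibroblasts, had 709 UPM in bleomycin members and 119 in saline members, and Tpm2 and Tagln rose by log2 ratios of 2.08 and 1.41. Of these 6, Actn4 lay under 2 times its floor. Acta2 UMIs were concentrated in few cells in both libraries: the top 10% of cells held 64.8% of them in bleomycin members and 87.4% in saline members. At 3000 UMIs per cell, 47.2% of bleomycin members and 14.9% of saline members had an Acta2 UMI, against 18.3% of bleomycin and 11.5% of saline endothelial cells. Smooth muscle markers beside this summed to 315 UPM in bleomycin members and 136 in saline members, with Myh11, the smooth muscle myosin, at 6.84 UPM in bleomycin members and 5.08 in saline members.

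Metallothioneins, small proteins that bind zinc and copper, were among the most abundant genes that rose. Mt1 had 5282 UPM in bleomycin members and 1439 in saline members, and Mt2 had 3377 in bleomycin and 681 in saline members, log2 ratios of 1.88 and 2.31. The pair lies side by side on chromosome 8, and across single cells their levels ran together, with a Spearman rho of 0.86 over bleomycin members and 0.50 over saline members, a description in which both genes share each cell's depth. The promoters of the 2 genes are shown because the pair moved together. They run from 250 bases before to 50 bases after the gene start in RefSeq (GRCm38.p6, plus strand). Capitals mark matches to the metal response element cores TGCACNC and TGCGCNC, searched on both strands. The marked matches do not overlap, but the search did not leave out overlapping matches in other windows.
Mt1, chr8:94178839-94179138: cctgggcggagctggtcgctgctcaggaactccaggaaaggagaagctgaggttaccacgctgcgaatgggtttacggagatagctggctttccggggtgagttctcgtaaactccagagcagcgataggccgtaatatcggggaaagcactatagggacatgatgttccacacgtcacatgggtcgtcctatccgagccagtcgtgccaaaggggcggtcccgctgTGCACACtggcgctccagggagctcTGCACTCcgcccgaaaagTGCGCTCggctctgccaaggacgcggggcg
Mt2, chr8:94172368-94172667: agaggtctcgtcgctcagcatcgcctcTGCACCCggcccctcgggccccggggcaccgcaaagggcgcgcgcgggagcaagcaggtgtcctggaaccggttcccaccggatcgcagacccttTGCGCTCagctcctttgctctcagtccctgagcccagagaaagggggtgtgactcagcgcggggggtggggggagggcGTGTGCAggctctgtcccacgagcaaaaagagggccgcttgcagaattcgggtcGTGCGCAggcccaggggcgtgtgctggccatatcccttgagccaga
The Mt1 window holds 3 matches and the Mt2 window 4. Of 32851 promoter windows of this length, 25.7% hold at least 1 match and 1.97% hold at least 3. A match describes letters in the window and is not a bound site.

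Other genes that respond to glucocorticoids rose in part: of 12 tested in that list, which includes both metallothioneins, 6 rose and none fell. Fkbp5, a co-chaperone of the glucocorticoid receptor, had 77.1 UPM in bleomycin members and 8.18 in saline members, but the bleomycin floor was 53.8. Tsc22d3, another classic target, stood at 470 UPM in bleomycin members and 582 in saline members. Of the 19 genes tested in the list of inflammatory and acute-phase genes 4 rose and 7 fell, with a median log2 ratio of -0.44. Those that rose were Saa3, Hp, Serpina3n and Cxcl12. Hp, haptoglobin, had 867 UPM in bleomycin members and 122 in saline members, and Serpina3n, a serine protease inhibitor with close family copies, 1068 in bleomycin and 224 in saline members. Cxcl12, a chemokine, had 578 UPM in bleomycin members and 237 in saline members. Those that fell included Nfkbia, the inhibitor of NF-kB (239 UPM in bleomycin members and 741 in saline members, under 2 times its floor), Tnfaip3 (bleomycin 15.3, saline 69.3), a brake on that pathway, and Vcam1. Il6 had 12.9 UPM in bleomycin members and 23.3 in saline members after the rule had left out its highest cells, a log2 ratio of -0.80 that turned to 0.15 when the ceilings were set per 10000 UMIs.

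The genes that fell most included several of retinoid handling. Rbp4, the retinol carrier (chr19:38116629-38125281), had 17.6 UPM in bleomycin members and 222 in saline members, a log2 ratio of -3.59. Lrat, which esterifies retinol for storage, had 21.7 UPM in bleomycin members and 150 in saline members, and Adh7, an alcohol dehydrogenase that oxidises retinol, 1.79 in bleomycin and 27.2 in saline members. Dhrs3, a retinal reductase, fell by a log2 ratio of -1.36. In all, 3 of 8 tested genes of the retinoid list fell and 1, Cyp26b1, rose. Lrat was not on that list. Saline fibroblasts that met the rest of the rule, with a marker sum below 8, had more Rbp4 and Adh7, 712 and 167 UPM. They had less Lrat and Dhrs3, 71.7 and 79.1 UPM. With the marker sum at 24 or more, the log2 ratio of Rbp4 was -1.75.

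Colq, the collagen tail of acetylcholinesterase, showed the lowest ratio among genes at least 2 times their floor, at 3.47 UPM in bleomycin members and 73.7 in saline members. Faim2, an inhibitor of Fas signalling, had 6.84 UPM in bleomycin members and 105 in saline members. Tmem100, a membrane protein that endothelial cells also make, had 19.7 UPM in bleomycin members and 221 in saline members, where the endothelial marker Cldn5 was at 1.58 UPM in bleomycin members and 2.86 in saline members. Pi16, a marker of adventitial fibroblasts, had 5.16 UPM in bleomycin members and 66.9 in saline members. That difference shrank as the marker threshold was raised, to a log2 ratio of -1.66 at 16 and -0.43 at 24. The 12 lowest also held Cbfa2t3 (a transcriptional corepressor, 3.58 UPM in bleomycin members and 37.7 in saline members), C1qtnf3, Cox8b (a cytochrome oxidase subunit) and Pde4b (a phosphodiesterase of cyclic AMP).

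Lepr, whose promoter drives the Cre of these mice, had 4.10 UPM in bleomycin members and 36.8 in saline members. The level in bleomycin members lies under the floor of 24.02 UPM set by that library's endothelial cells. The level in saline members is over the saline floor of 4.92 UPM. It is below that of the endothelial and immune cells sorted with them, 49.6 and 79.3 UPM. At 3000 UMIs per cell, 1.11% of bleomycin members and 10.4% of saline members had a Lepr UMI. The share was 9.68% in bleomycin and 16.8% in saline endothelial cells, and 1.95% in saline epithelial cells. The sort marks past or present activity of the promoter, and these counts measure RNA at harvest. Of the other leptin-signalling genes, Stat3 stood at 139 UPM in bleomycin members and 116 in saline members and Jak2 at 25.04 in bleomycin and 12.5 in saline members.

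Lipid genes moved both ways. G0s2, an inhibitor of lipolysis, had 292 UPM in bleomycin members and 1125 in saline members, and Lipe, the hormone-sensitive lipase, also fell (log2 ratio -1.02). Plin2, the coat of lipid droplets, stood at 168 UPM in bleomycin members and 143 in saline members. Lpl and Fabp4 rose but lay under 2 times their floors, with Fabp4 at 81.2 UPM in bleomycin members over a floor of 290. The cholesterol synthesis list fell together: 8 of 10 tested fell and none rose, with a median log2 ratio of -1.17. Its best measured members were Insig1 (27.2 UPM in bleomycin members and 89.9 in saline members) and Fdps (bleomycin 24.8, saline 55.6). Of the 8, only Sc5d was over 2 times its floor.

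Immediate early genes, which also respond to tissue digestion, were lower in bleomycin members. Of 23 tested, 17 fell and 1, Myc, rose, with a median log2 ratio of -1.30. Fos had 1307 UPM in bleomycin members and 3594 in saline members, Fosb 118 in bleomycin and 608 in saline members, and Nr4a1 141 in bleomycin and 648 in saline members. Fos lay under 2 times its floor, as did Klf2 and Myc (29.4 UPM in bleomycin members over a floor of 15.8). Atf3, Jund, Zfp36 and Ier3 also fell and lay under 2 times theirs. In endothelial cells at equal depth a Fos UMI was found in 59.7% of bleomycin and 92.0% of saline cells, and in members in 75.4% of bleomycin and 93.6% of saline cells. The part that handling of the 2 preparations plays was not tested.

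Lists of immune genes fell in part. Among 12 genes of antigen presentation 6 fell and none rose, with a median log2 ratio of -1.07: H2-D1, a class I molecule, had 374 UPM in bleomycin members and 1323 in saline members, B2m, its partner chain, 2017 in bleomycin and 4898 in saline members, and the peptide transporter gene Tap1 9.68 in bleomycin and 26.4 in saline members. H2-K1 lay under 2 times its floor, and reads of the near-identical class I genes may be split between them. Of 13 complement genes 6 fell and 1, Clu, rose: C3, the central component, had 192 UPM in bleomycin members and 816 in saline members. Among 18 interferon-response genes 6 fell, including Gbp2 (21.99 UPM in bleomycin members and 77.7 in saline members), and 1 rose, Ifit1 (bleomycin 25.7, saline 7.78). The rule leaves out cells with Cxcl9, a target of interferon gamma: its ceiling on Cxcl9 and Cxcl5 took out 7 bleomycin and 32 saline cells.

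Signalling genes showed single members rather than whole lists. Of 14 tested genes of the TGF-beta list none rose and 1 fell, Tgfb3 (42.8 UPM in bleomycin members and 93.5 in saline members); Ctgf, a classic target, stood at 245 UPM in bleomycin members and 138 in saline members. The list's median log2 ratio was -0.13. Of 12 genes of the Wnt list 3 rose and 2 fell, and of 17 growth factors and receptors 5 rose and 3 fell. Among those that fell were the Wnt ligands Wnt2 (52.9 UPM in bleomycin members and 120 in saline members), Wnt4 (bleomycin 15.8, saline 60.3), and the FGF ligands Fgf10 (bleomycin 26.6, saline 62.9) and Fgf7 (bleomycin 74.2, saline 151). Vegfa fell (bleomycin 17.5, saline 50.4) while its relative Pgf rose (bleomycin 33.8, saline 5.00). The Hedgehog receptor and target Ptch1 fell by a log2 ratio of -1.18, but its log2 ratio was -0.83, -0.62 and -0.37 with the marker sum at 12, 16 and 24 or more. Tgfb3 likewise lost its call at these thresholds (-0.86, -0.61 and -0.71), and Wnt4 (-0.40), Vegfa (-0.91) and Bambi (-0.80) did at 24. Bambi, a decoy receptor of BMP and TGF-beta, had 27.9 UPM in bleomycin members and 74.4 in saline members. Among transcription factors of the lung mesenchyme, 15 of 19 tested stayed within 2-fold, among them Tbx4 (bleomycin 26.5, saline 30.3) and Tbx5, and Hoxa5 fell (bleomycin 106, saline 240). Ebf1 (bleomycin 43.9, saline 4.29), Prrx2 and Runx1 rose. Of 12 tested targets of p53, which respond to DNA damage, none rose and 1 fell. Cdkn1a stood at 306 UPM in bleomycin members and 265 in saline members. The list's median log2 ratio was 0.28, with 14 of 17 genes above 0, against -0.04 over all genes with at least 20 UMIs.

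**Figure D3:**
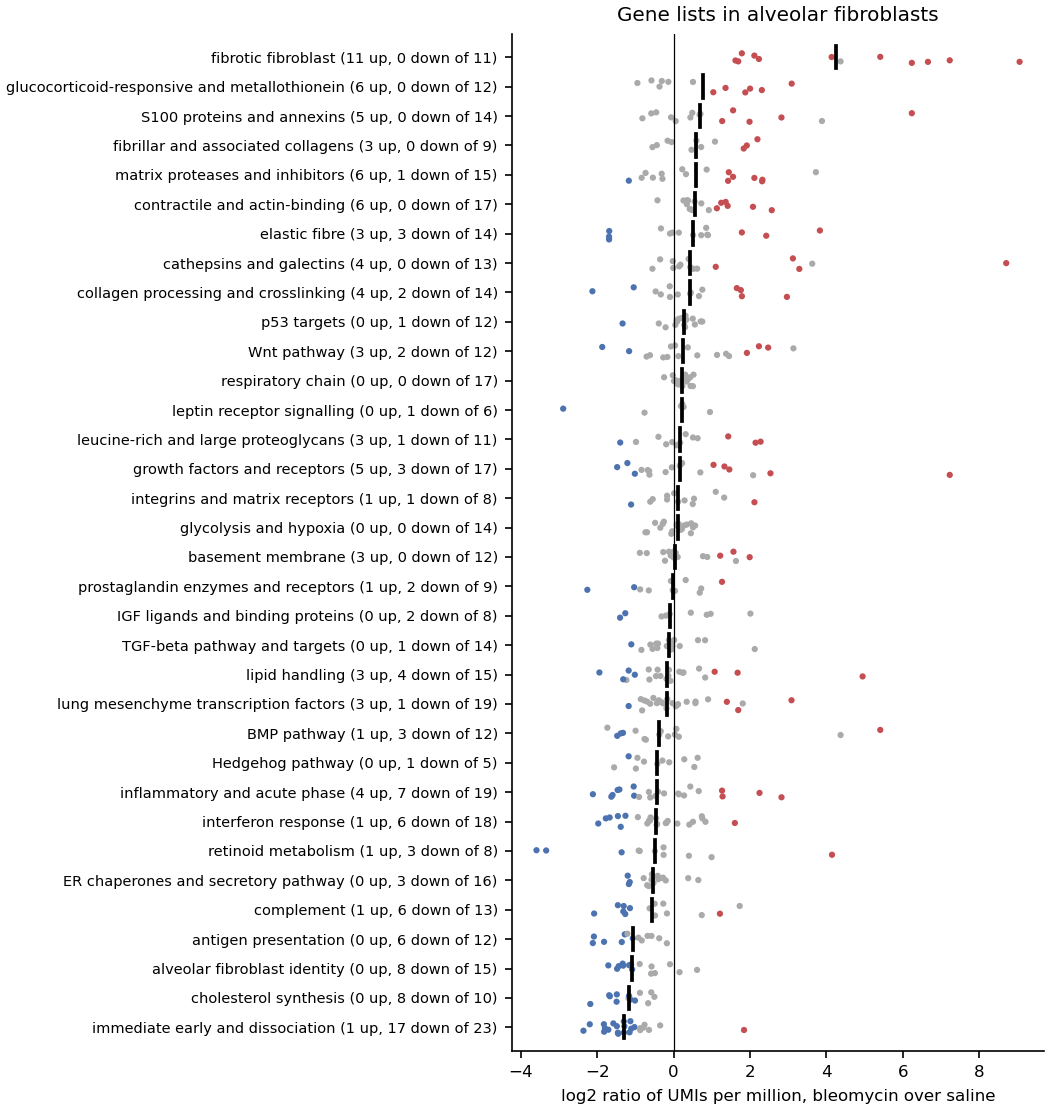
Log2 ratio of UPM, bleomycin over saline (x axis), for the genes of each list with at least 20 UMIs in the 2 libraries together; each point is 1 gene, red where it rose, blue where it fell and grey otherwise, and black bars are list medians. The fibrotic fibroblast list stands at 4.25 and the immediate early list at -1.30, against -0.02 for all genes tested.

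The bleomycin members were far from uniform. At 3000 UMIs per cell, an Inmt UMI was found in 60.7% of bleomycin members and 99.1% of saline members, against 8.06% of bleomycin and 48.7% of saline endothelial cells (before thinning, 70.3% of bleomycin and 99.6% of saline members). By Inmt UMIs at this depth, a division chosen after its values were seen and with no test, 320 bleomycin members had none, 109 had 1 to 3, 143 had 4 to 9 and 242 had 10 or more. Of saline members, 16 had none and 1331 had 10 or more. The median depth before thinning was 11931.5 UMIs in the bleomycin cells without Inmt and 8851.5 in those with 10 or more, and the median marker sum was 11.7 without Inmt and 21.8 with 10 or more.

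Fibrotic, collagen and contractile genes differed between the 2 ends of this range, and several genes that separated the libraries hardly did. Between bleomycin cells with no Inmt and those with 10 or more, 150 of 2607 genes tested were at least 2-fold higher and 150 at least 2-fold lower. These counts include Inmt, lower by the split itself, and the rule's own genes where tested. Cells without Inmt had more of the fibrotic genes: Cthrc1 stood at 173 UPM without Inmt and 13.8 with 10 or more, Postn at 165 without and 17.9 with, and Ptn at 383 without and 41.3 with. Col1a1 was 5283 UPM without Inmt and 1180 with 10 or more, Acta2 1067 without and 190 with, and Ctla2a 2923 without and 335 with. They had less of the lipid and identity genes: Ces1d was 34.4 UPM without Inmt and 468 with 10 or more, G0s2 105 without and 786.5 with, and Mfap4 2576 without and 9293 with. Among the rule's own markers, Figf was 846 UPM without Inmt and 725 with 10 or more, whereas Npnt was 299 without and 993 with, and Slc7a10 1.04 without and 124 with. In the cells without Inmt, Figf was the highest of the rule's 5 markers. Close at both ends were Fos (1482 UPM without Inmt and 1401 with 10 or more), Hp (930 without and 715 with) and Serpina3n (1086 without and 853 with). Rbp4 was 11.5 UPM without Inmt and 13.8 with 10 or more. It was 21.4 at 1 to 3 and 39.6 at 4 to 9 Inmt UMIs, each from few UMIs.

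Bleomycin cells high in Inmt still differed from saline cells high in Inmt. In cells with 10 or more Inmt UMIs, Inmt itself was 6585 UPM in 242 bleomycin members and 8163 in 1331 saline members. Among these, Eln was 4489 UPM in bleomycin cells and 1174 in saline cells, and Sparc 6649 in bleomycin and 3129 in saline cells. Hp was 715 UPM in bleomycin cells and 87.4 in saline cells, and Serpina3n 853 in bleomycin and 182 in saline cells. Fos was 1401 UPM in bleomycin cells and 3503 in saline cells, and C3 200 in bleomycin and 634 in saline cells. Spp1 was 656 UPM in bleomycin cells, over a floor of 188.5, and 1.503 in saline cells. Col1a1 was closer, at 1180 UPM in bleomycin cells and 901 in saline cells, and Mfap4, at 9293 in bleomycin and 4897 in saline cells, was higher in bleomycin.

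Spp1 was found widely but its UMIs lay in few cells. At 3000 UMIs per cell, 362 bleomycin members (44.5%) had none and 338 (41.5%) had 1 to 3, while 44.1% of the library's endothelial cells and 91.3% of its immune cells had at least 1. The 57 cells with 16 or more (7.0%) held 69.9% of the Spp1 UMIs. These 57 had 895 UPM of Inmt, against 2798 in cells without Spp1, and 5520 UPM of Mt2, against 2413 in cells without Spp1. Cthrc1 did not follow this order: it was 81.9 UPM in the 57 cells and 84.7 in cells without Spp1. The split of Spp1 by cell is sharper than that of Sparc, of which the top 10% of bleomycin members held 21.4% of the UMIs, against 79.2% for Spp1.

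Ctla2a was the most unevenly spread gene in the bleomycin members. Its variance over cells was 69.9 times its mean, where counting noise alone gives 1, and 29.0% of the cells had a UMI at 3000 UMIs, with 204 UMIs in the highest cell. Endothelial cells of the bleomycin library had a UMI of it in 87.6% of cells. The 10 endothelial markers summed to 39.9 UPM in bleomycin members, and the part that RNA of endothelial cells plays was not tested. Spp1, Cd74 (51 UMIs in the highest cell and a UMI in 5.41% of cells), Saa3, Mgp, Malat1, Mt1, Ftl1, Eln and Mt2 followed in the bleomycin members. In the saline members Acta2 and Dcn led, followed by Saa3, Mt1, Mt2, Malat1, Mgp, Gsn, Mfap4 and Actb. Gsn, the actin-severing gelsolin, was also among the abundant genes that fell, with 3705 UPM in bleomycin members and 17746 in saline members. Mt1 was found in more cells as well as at a higher level: 88.8% of bleomycin members and 56.0% of saline members had a UMI, against 52.2% of bleomycin and 27.4% of saline endothelial cells and 95.9% of bleomycin and 92.3% of saline immune cells.

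**Figure D4:**
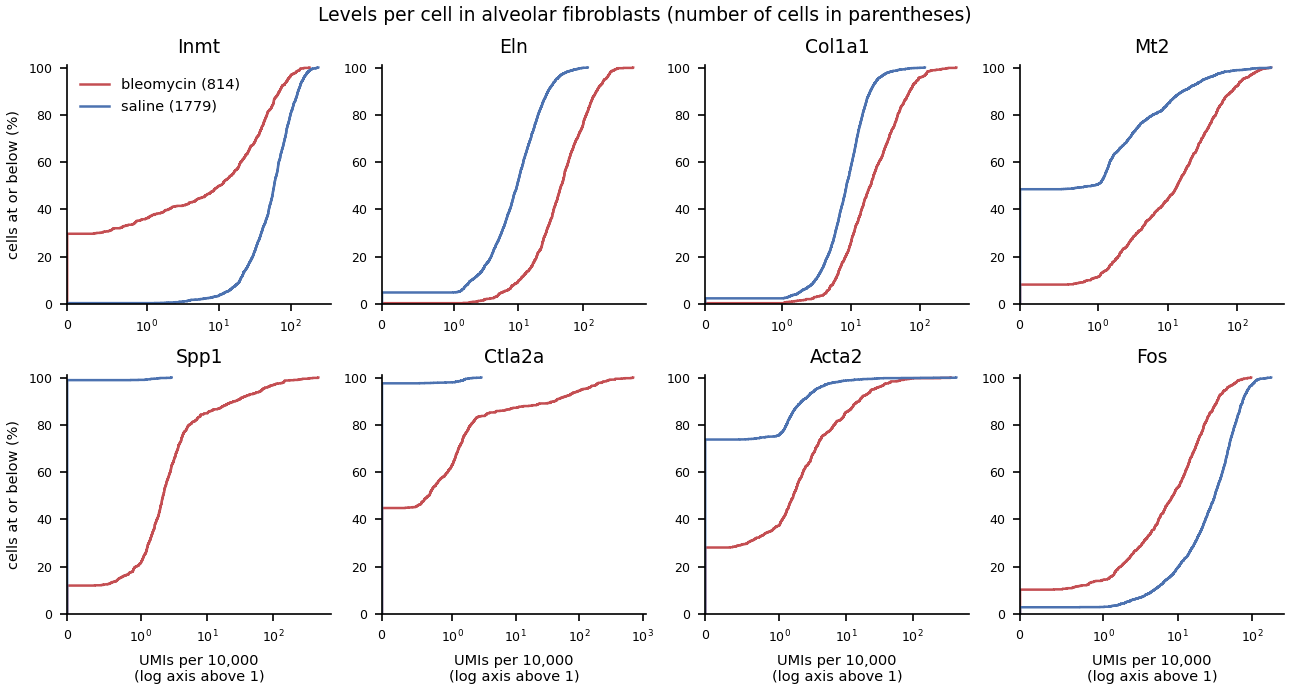
Cumulative share of member cells (y axis, %) at or below each level of 8 genes in UMIs per 10000 (x axis, log above 1), for 814 bleomycin cells in red and 1779 saline cells in blue, without thinning. The Inmt curve of bleomycin cells starts near 30% at 0 and stays at lower levels than the saline curve. The 90th percentile of Inmt was 70.0 in bleomycin cells and 127 in saline cells. The Eln curve is shifted along its whole length.

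Levels changed with the marker sum within each library, and in cells outside the rule as well. In bleomycin members Inmt was 951 UPM at a sum of 8 to 12 (293 cells), 1529 at 12 to 16 (178), 2610 at 16 to 24 (190) and 4721 at 24 and over (153). In saline members it was 5003, 5409, 6115 and 7850 in the same ranges (291, 232, 475 and 781 cells), so the bleomycin members were lower in each. Spp1 ran the other way in bleomycin members, at 2160, 1344, 986 and 486 UPM, and so did Cthrc1, at 174, 122, 59.96 and 36.4. The gradients went on below the threshold: bleomycin fibroblasts at 4 to 8 (608 cells) had 3752 UPM of Spp1 and 461 of Inmt, and those at over 0 to 4 (1152 cells) 6673 of Spp1 and 103 of Inmt. In saline members the low ranges held other genes instead. Rbp4 was 673, 396, 150 and 54.0 UPM from the lowest to the highest range and Dcn 2031, 1027, 422 and 140, while Eln stayed between 1166 and 1777.

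Most genes that rose or fell kept their call when the marker ranges were weighted alike, but at 24 and over most did not. An equal sum does not make the cells alike, since the markers contribute unequally in the 2 libraries. At 8 to 12, Figf was 466 and Npnt 351 UPM in bleomycin members, and Figf 190 and Npnt 499 in saline members. Eln in the ranges from 8 to 24 and over was 8071, 8211, 7646 and 4973 UPM in bleomycin members and 1571, 1777, 1508 and 1166 in saline members. Mfap4, by contrast, changed order, at 2737 UPM in bleomycin and 3291 in saline members at 8 to 12, and 10051 UPM in bleomycin and 5956 in saline members at 24 and over. When saline cells were reweighted to the bleomycin cells' marker ranges, a choice made after the data were seen, 228 of the 265 genes that rose (86.0%) and 268 of the 330 that fell (81.2%) kept their call. Reweighting ended the calls of 7 named genes: Ces1d (-0.77), Npnt (-0.78), Itga8 (-0.84), Prrx2 (0.75), Myl9 (0.79), Lgals1 (0.91) and Aspn (0.95). With the marker sum at 24 or more, 38.1% of those that rose and 47.3% of those that fell kept their call. At that threshold fewer cells were summed, and Inmt (log2 ratio -0.73), Ces1d (-0.63), Npnt (-0.76), Col1a2 (0.95), Tagln (0.67), Fbln1 (-0.87), G0s2 (-0.95), Hoxa5 (-0.93), Tap1 (-0.77), Fgfr4 (-0.80) and Dhrs3 (-0.94) no longer reached 2-fold, while Eln (2.09), Spp1 (7.34), Sparc (1.24), Fosb (-2.39) and Rbp4 (-1.75) still did.

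**Figure D5:**
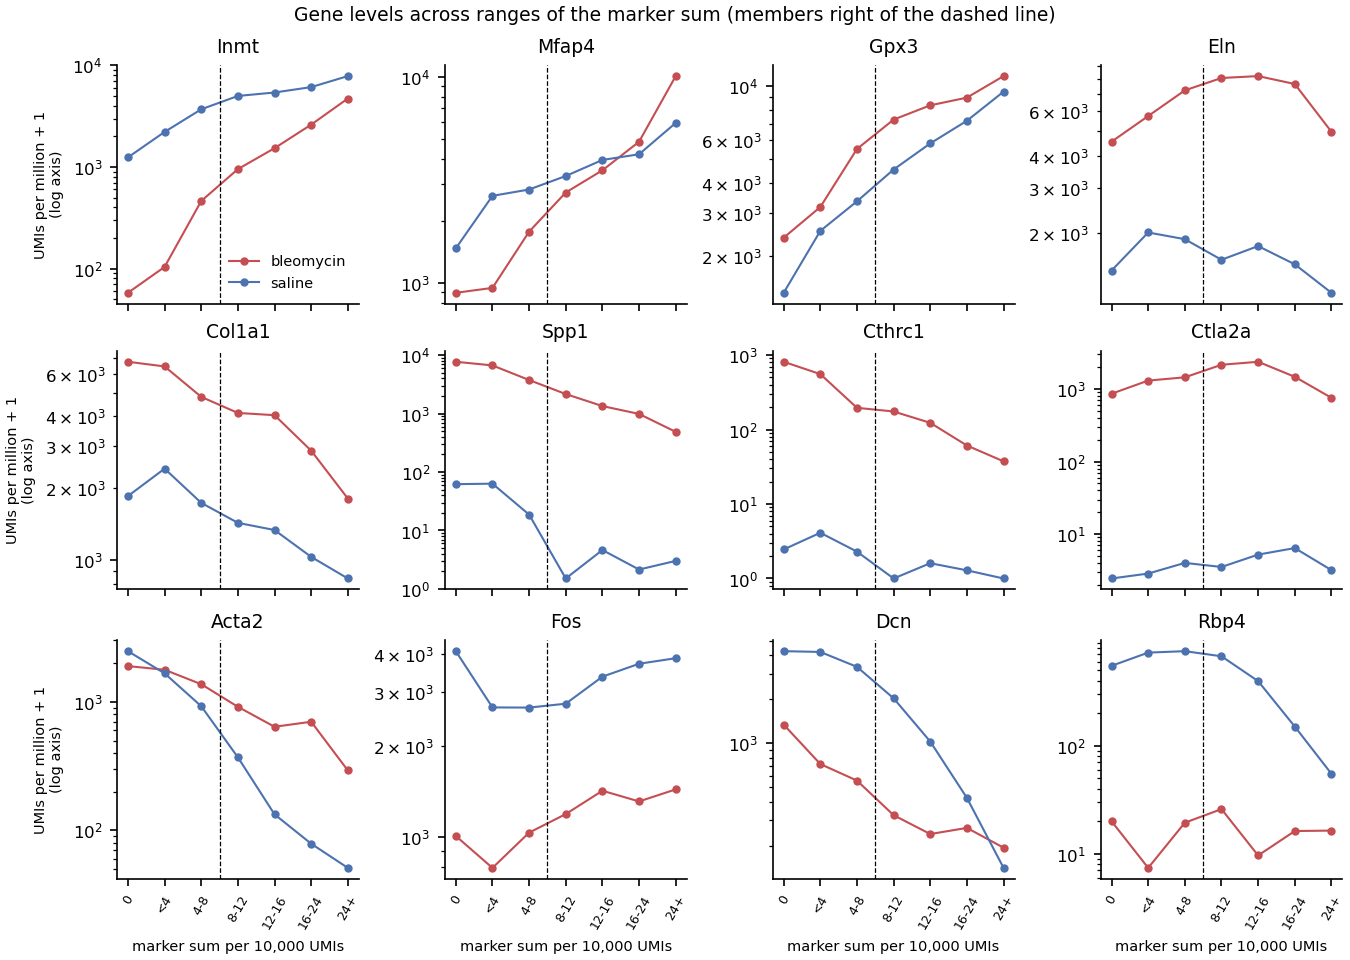
Levels of 12 genes in UPM + 1 (y axis, log) across ranges of the marker sum (x axis, UMIs per 10000), bleomycin in red and saline in blue; members lie right of the dashed line. Inmt rises and Spp1 falls with the marker sum in bleomycin cells, and Eln is higher in bleomycin cells in each range of the members.

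Most of the genes that rose or fell in alveolar fibroblasts did so in the other fibroblasts as well. In the other fibroblasts, which meet the rest of the rule but have a marker sum below 8 (2006 bleomycin and 785 saline cells), 4.84% of 5954 genes tested rose and 10.2% fell. Of the genes that rose in alveolar fibroblasts, 150 also rose there, 56.6% of the alveolar and 52.1% of the other set. Of those that fell, 249 also fell there, 75.5% of the alveolar and 40.9% of the other set. Spp1 had 5956 UPM in the other bleomycin fibroblasts and 39.6 in the other saline fibroblasts, and Cthrc1 477 in the bleomycin and 1.95 in the saline cells, so both were higher there than in alveolar members of the same library. Within the bleomycin library Hp and Serpina3n ran the other way: Hp had 867 UPM in alveolar members and 313 in the other fibroblasts, and Serpina3n 1068 in alveolar members and 571 in the others. Tmem100 fell in alveolar members and stood at 26.8 UPM in the other bleomycin fibroblasts and 49.2 in the other saline fibroblasts. No difference between these 2 sets of cells was tested, since each group is 1 library.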

How the data were processed

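Lung cells positive for tdTomato were sorted and captured with a 10x Genomics 3-prime kit, 1 library per group, per the labels' protocols. The deposited matrices hold raw UMI counts per gene and barcode, made by the authors with Cell Ranger 2.1.1 on mm10, per the submitters' processing notes; the annotation and the settings that called cells were not given in sources used here. Of 28692 gene identifiers 28339 matched GENCODE vM21, used for positions. The libraries hold 61537182 UMIs (bleomycin) and 37570380 (saline).

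UMIs were summed over member cells per library and scaled to UPM (per 1000000 UMIs); log2 ratios, bleomycin over saline, had 1 UPM added. Intervals at 95% are exact Poisson for levels, exact conditional binomial for ratios and Clopper-Pearson for shares. They cover counting error only. Shares of cells with a UMI used cells thinned to 3000 UMIs, which left out 0 bleomycin and 54 saline members. List medians are over genes outside the membership rule with at least 20 UMIs. The 12 highest and 12 lowest genes named had to pass the size rule at 2 times the floor or more, and excluded predicted, ribosomal, mitochondrial, haemoglobin, immunoglobulin and sex-linked genes; named too were up to 4 genes per list with the largest ratios, a fixed set of markers, and the 10 genes per library with the highest variance over mean among cells. Other list members are named to show what did not move, chosen after their values were seen. Symbols listed under more than 1 identifier were left out of the lists. Values of some list members are not reported here. The members and lists were chosen with earlier results of these data known.

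Doublets were not removed beyond the gate on Ptprc, Pecam1 and Epcam; Scrublet's own threshold marked 5 bleomycin and 34 saline barcodes, too few in the bleomycin library to be trusted, so an alternative left out the 160 and 238 with the highest scores. Other alternatives were the marker threshold, ceilings per 10000 UMIs, thinning, the mean over cells, TMM scaling, the prior and the minimum counts. Python 3.11.15 with numpy 2.4.6, scipy 1.17.1, pandas 2.3.3 and scanpy 1.11.5 was used, and edgeR 4.0.16 for TMM factors alone. The size rule was tested on simulated data.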

Additional observations from a re-analysis of the deposited data

Results flagged for a closer look

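A pair of genes passed the size rule in opposite directions in the alveolar fibroblasts and in the other fibroblasts of the same libraries; the difference between the sets was not tested. Lmcd1, a transcriptional cofactor of muscle, had 21.4 UPM in bleomycin members and 3.73 in saline members, a log2 ratio of 2.24, and 23.0 UPM in the other bleomycin fibroblasts and 57.8 in the other saline fibroblasts, a log2 ratio of -1.30. Smoc2, a matrix protein that binds calcium, had 89.2 UPM in bleomycin members and 36.5 in saline members, a log2 ratio of 1.27, and 57.4 UPM in the other bleomycin fibroblasts and 181 in the other saline fibroblasts, a log2 ratio of -1.64. The bleomycin levels of Lmcd1 were close in both sets, and the saline levels were far apart.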

How the results depend on the processing

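No paired analysis was possible because each group is 1 library, and no replicate could be left out. The marker threshold set the number of cells: 521 bleomycin members remained at 12 per 10000 and 343 at 16. The counts of genes that rose and fell were 594 and 676 with 20 UMIs and no minimum UPM, 141 and 206 with 100 UMIs and 50 UPM, and 125 and 211 with the marker sum at 24 or more, the last chosen after seeing the data; the other alternatives kept both counts within 1.5 times. Of the named genes' values, 1463 kept their direction and their side of the threshold, 119 no longer passed the size rule, by ratio or by minimum count, and 8 newly did, most of these under higher marker thresholds. Direction turned for Dcn (0.46) and Ptgs2 (0.17), both with the marker sum at 24 or more, and among genes under 2-fold for Tcf21 (0.15) there, Il6 (0.15) with ceilings per 10000 and Hhip (-0.044) at a threshold of 5. Among list medians, those of the adventitial list turned to 0.082, 0.47 and 0.38 at thresholds of 12, 16 and 24 and 0.011 with ceilings per 10000, the mesothelial list to -0.024, -0.057 and -0.15 and the IGF list to 0.023, 0.14 and 0.35 at the same thresholds, with 0.0025 for the IGF list when thinned. The endothelial list turned to 0.079 and 0.17 at 16 and 24, the smooth muscle list to -0.24 at 24 and -0.20 when reweighted, the pericyte list to -0.67 at a threshold of 5 and -0.33 when reweighted, and the integrin list to -0.026 when reweighted. The basement membrane list, at 0.030, turned to -0.14 at 24, -0.022 at 5 and -0.013 when reweighted, and the prostaglandin list, at -0.023, to 0.17 at 24, 0.063 at 5 and 0.014 with TMM scaling. The cause was not tested. TMM factors were 0.985 for bleomycin and 1.015 for saline members.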
